A study of Rattus norvegicus with 6 samples.

Results

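The genes of cell division described here are 58 that carry out mitosis, from the kinases that start it to the motors and proteases that end it. They were taken as a list of names, and the list was chosen with earlier results of these data known. Of the 58, 47 had a row in the deposited table of 16499 gene symbols, and all 47 passed the filter on low values that left 9820 transcript rows for testing. The 11 without a row were Bub1b, Cenpe, Spc24, Birc5, Kif4, Anln, Ect2, Ncapd2, Ncapg, Ncaph and Mki67, and they were not analysed here. RNA was sequenced from fibroblast-like cells grown out of the synovium, the lining of the joint, of female Wistar rats with collagen-induced arthritis. Cells of 2 rats, taken before therapy, were each divided over 3 media, which gave 6 libraries of 5463316 to 5991889 reads. The FBS medium held fetal bovine serum. The MS- medium (AP- in the labels) held serum of untreated animals, drawn before any treatment had started, and the MS+ medium (AP+ in the labels) held serum of animals under acupuncture needle stimulation, drawn at day 18. All cells therefore came from arthritic animals, and only the serum differed. Stimulation and the time at which serum was drawn differ together between MS+ and MS- and cannot be told apart. The paper states that the cells had been expanded in medium with fetal bovine serum, so each rat serum was also a change of medium. Species, fetal origin of the serum and this change differ together between FBS and the rat sera, and cannot be told apart. How many animals gave each serum is not stated in the labels, and for MS- a single label field speaks of healthy rats where the others say arthritic. The replicate is therefore the rat that gave the cells.

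Mitosis is driven by the kinase Cdk1 with its B-type cyclins, which condenses the chromosomes and builds the spindle. Kinetochores tie chromosomes to spindle microtubules, and a checkpoint holds the cell until every kinetochore is attached. The anaphase-promoting complex (APC/C) then marks cyclins and securin for destruction, separase cuts the cohesin that joins sister chromatids, and a central spindle guides cytokinesis. Most transcripts of these proteins are made late in the cycle and are scarce in resting cells, which makes them common readouts of how many cells in a culture are dividing. In bulk RNA, fewer dividing cells and less transcript per dividing cell cannot be told apart.

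Many promoters of such genes are known to hold a cell cycle homology region, bound by repressor and activator complexes, near CCAAT boxes bound by NF-Y. RefSeq promoters (assembly GRCr8, 250 bases before to 50 after the gene start) were found for 50 of the 58 genes, and were searched on both strands for 3 motifs. TTTGAA, the core of the cell cycle homology region, occurred in 35 of the 50 (70.0%), against 18.1% of 27457 promoters (1 for each symbol of the table), and CCAAT occurred in 39 (78.0%), against 37.7%. Both stood in 30 promoters (60.0%), against 7.25% of all. The E2F-type motif GCGGGAA occurred in 3 (6.0%), against 4.47% of all, 8 of 18 promoters of replication licensing genes (44.4%) and 11 of 27 of DNA synthesis genes (40.7%). Among the 7000 promoters of symbols tested in these cells, TTTGAA occurred in 770, and the shares were 38.2% for CCAAT, 4.67% for both and 8.4% for GCGGGAA. The 40 mitotic genes with a promoter and a row held TTTGAA in 70.0%, CCAAT in 80.0%, both in 62.5% and GCGGGAA in 5.0%. For GCGGGAA that share is only 2 promoters, and its difference from tested symbols was not tested. A match is a run of letters, not a proven site, and variants of the 3 motifs were not searched. The 250 bases before the gene start are printed for 3 genes that were low in MS- and higher in MS+ (Cdk1, Cdc20, Tacc3) and 2 whose level moved little (Cdc25b, Smc4). They are written 5′ to 3′ on the gene's strand, with matches to the 3 motifs in capitals. A TTTGAA of the opposite strand appears as TTCAAA. Likewise ATTGG stands for a CCAAT box read from the opposite strand. Cdk1 was added to the genes chosen by rule after its values were seen.
Cdk1, the kinase of mitotic entry, chr20:19265043-19265292, plus strand: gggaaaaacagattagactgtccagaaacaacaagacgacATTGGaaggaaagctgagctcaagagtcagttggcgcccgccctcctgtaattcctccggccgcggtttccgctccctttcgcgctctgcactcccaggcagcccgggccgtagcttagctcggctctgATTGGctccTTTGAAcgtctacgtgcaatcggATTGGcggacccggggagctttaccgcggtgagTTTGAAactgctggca
Cdc20, an activator of the APC/C, chr5:137255800-137256049, minus strand: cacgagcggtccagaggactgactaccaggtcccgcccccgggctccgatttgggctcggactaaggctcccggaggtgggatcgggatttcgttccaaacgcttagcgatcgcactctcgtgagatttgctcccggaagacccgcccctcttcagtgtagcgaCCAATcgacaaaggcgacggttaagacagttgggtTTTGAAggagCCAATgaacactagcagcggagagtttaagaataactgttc
Tacc3, a spindle microtubule protein, chr14:81289699-81289948, minus strand: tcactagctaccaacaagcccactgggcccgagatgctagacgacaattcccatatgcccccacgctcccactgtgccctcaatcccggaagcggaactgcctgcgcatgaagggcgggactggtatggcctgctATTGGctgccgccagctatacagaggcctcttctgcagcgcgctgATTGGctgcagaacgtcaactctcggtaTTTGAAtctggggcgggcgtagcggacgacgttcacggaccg
Cdc25b, a phosphatase that activates Cdk1, chr3:138859923-138860172, plus strand: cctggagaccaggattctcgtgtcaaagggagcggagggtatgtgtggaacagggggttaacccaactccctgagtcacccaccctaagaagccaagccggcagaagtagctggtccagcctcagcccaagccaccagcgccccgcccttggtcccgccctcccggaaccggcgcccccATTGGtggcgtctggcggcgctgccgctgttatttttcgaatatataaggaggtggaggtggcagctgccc
Smc4, a condensin subunit, chr2:155550012-155550261, plus strand: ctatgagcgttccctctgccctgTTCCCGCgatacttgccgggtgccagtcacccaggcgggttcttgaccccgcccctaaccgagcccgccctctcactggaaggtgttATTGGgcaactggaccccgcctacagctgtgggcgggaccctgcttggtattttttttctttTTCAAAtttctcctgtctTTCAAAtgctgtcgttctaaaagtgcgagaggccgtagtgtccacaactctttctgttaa

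The Cdc20 window held TTTGAA at 51 bases before the start, between CCAAT boxes at 86 and 41. In Tacc3 the TTTGAA lay 42 bases before the start, downstream of a pair of boxes in reverse orientation. Cdk1 held TTTGAA at 72 and at 16 bases before the start. In Cdc25b a single CCAAT box and no TTTGAA was found, while Smc4 held TTTGAA letters on the other strand at 78 and 60 bases before the start, 1 box and 1 E2F-type match, also on the other strand. Over the 50 promoters TTTGAA lay on the gene's own strand in 27 (54.0%, against 9.94% of all promoters) and on the other strand in 9 (18.0%, against 9.46%).

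**Figure D1:**
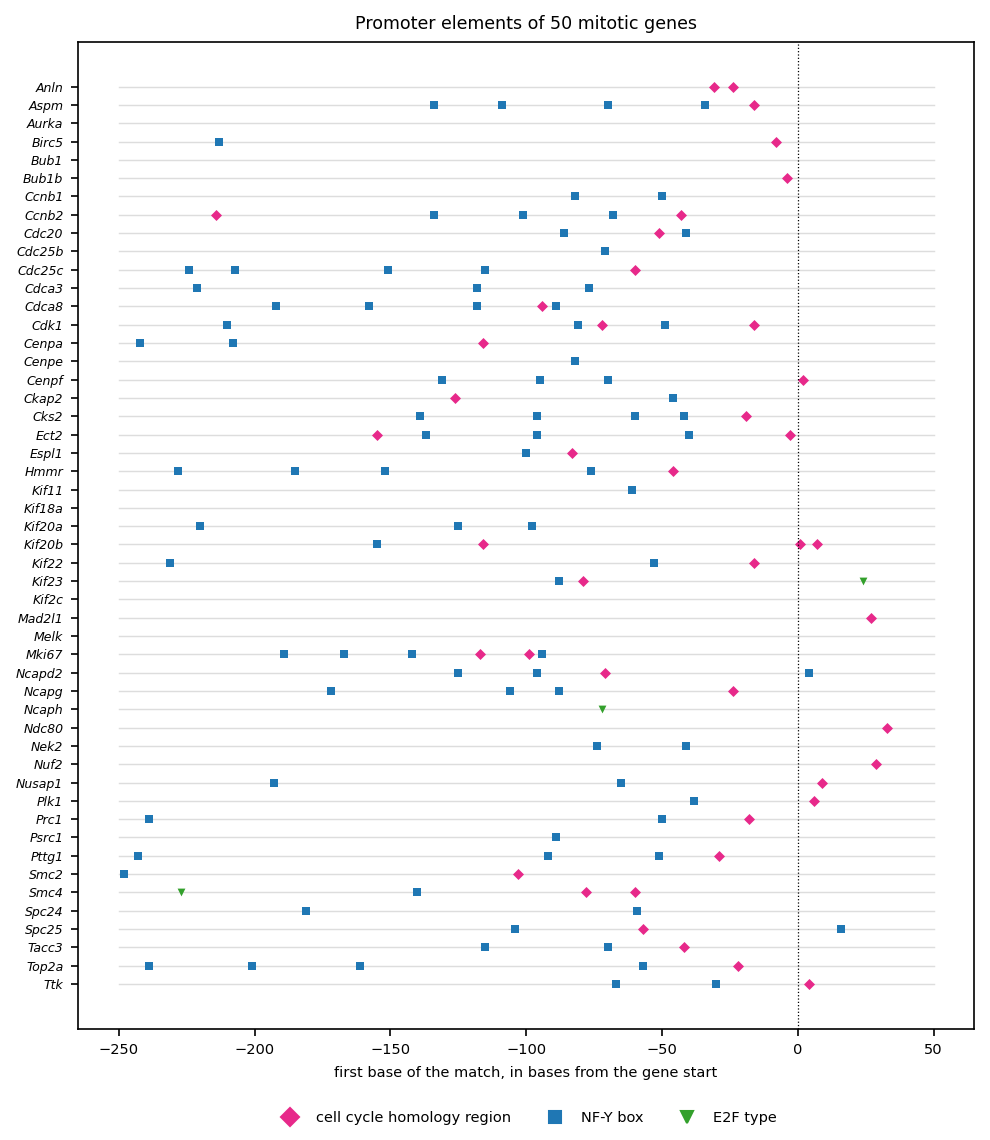
Position of each motif match (first base, in bases from the gene start on the horizontal axis) in 50 promoters of mitotic genes, 1 gene a line; diamonds mark the cell cycle homology region core, squares the NF-Y box and triangles the E2F-type motif. Matches of the first 2 motifs occur in most promoters, from 248 bases before the start to 33 after it, and 3 promoters hold an E2F-type match.

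In the cells, mitotic transcripts were most abundant in FBS, lowest in MS- and between them in MS+. The summed level of the 47 genes, in normalised CPM (reads scaled to library size by the authors), was 1323.3 in rat 1 and 1376.5 in rat 2 with FBS. It was 329.1 and 403.6 CPM with MS-, which is 24.9% and 29.3% of the same rat's FBS culture. With MS+ it was 567.0 and 677.6 CPM, or 42.8% and 49.2% of FBS. The sum in MS+ was therefore 1.72 times that of MS- in rat 1 and 1.68 times in rat 2, and the sums of the 3 conditions did not overlap.

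The order FBS above MS+ above MS- held for 43 of the 47 genes in rat 1, against 15.5% of all rows tested, and for 44 in rat 2, against 15.7%. It held in both rats for 40 genes, against 6.33% of all rows. The 7 exceptions were Cdc25b, Cdc25c, Cks2, Incenp, Cdca8, Kif2c and Smc4. Of these, Cks2, Incenp, Cdca8, Kif2c and Smc4 differed in the order of MS+ and MS- between the rats, while Cdc25b and Cdc25c reached or passed their FBS level with MS+ in 1 rat.

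**Figure D2:**
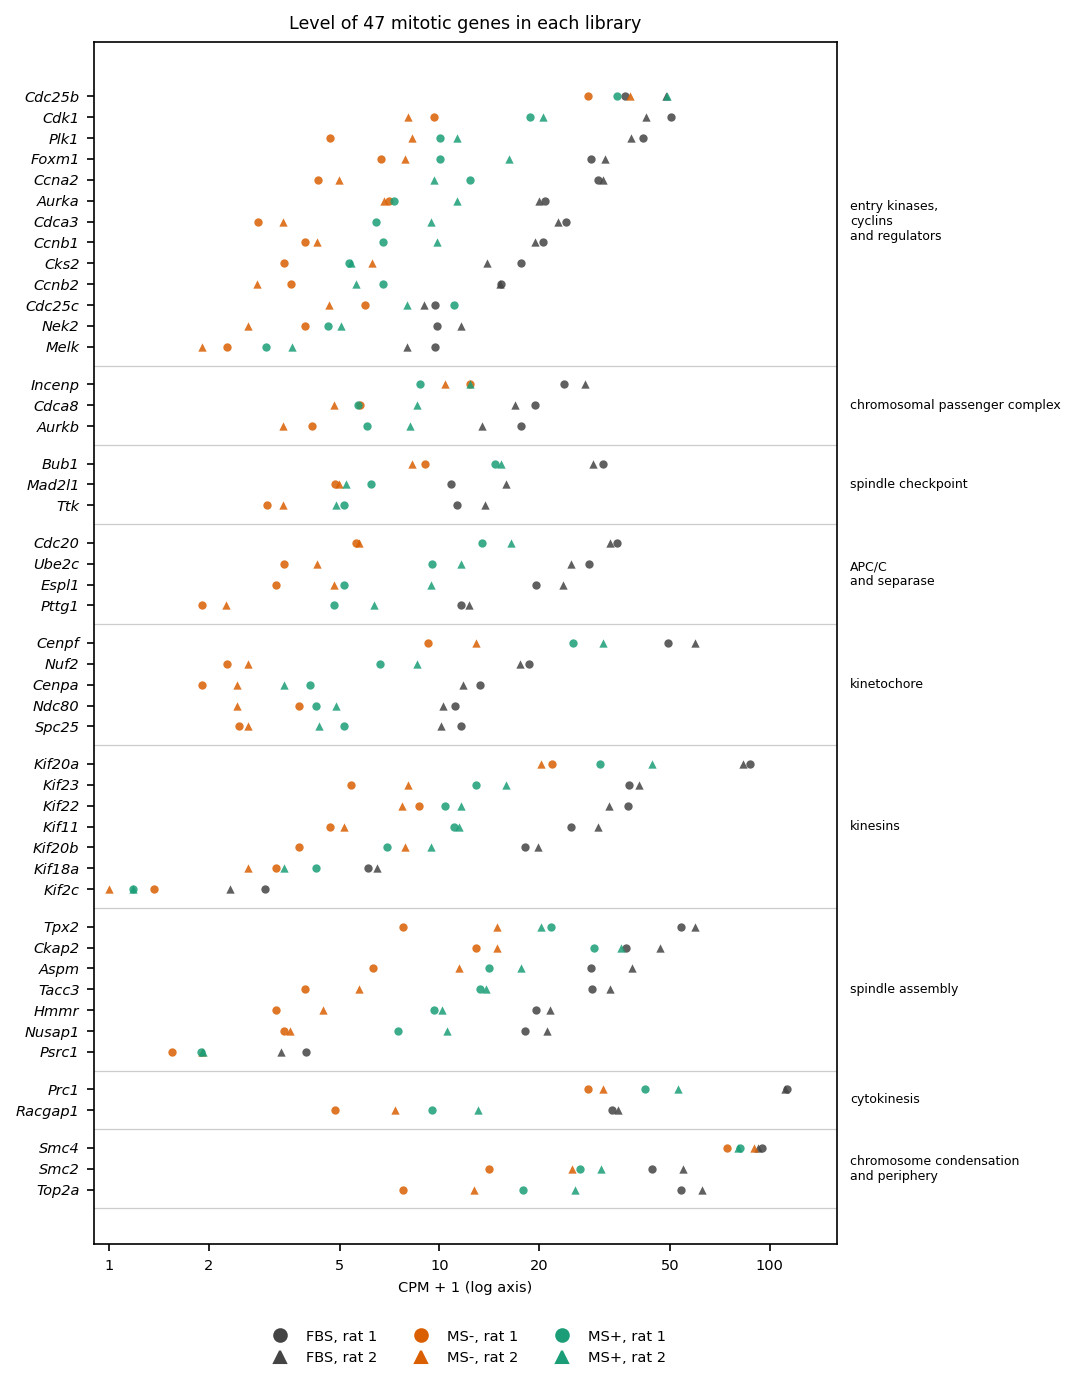
Level of each of 47 mitotic genes in each library (CPM + 1, log axis); rows are genes grouped by role, colours are conditions, circles are rat 1 and triangles rat 2. For most genes the FBS points lie to the right, the MS- points to the left and the MS+ points between them; Smc4 and Cdc25b show little spread.

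The comparison of MS+ with MS- asks how the cells respond to serum drawn during stimulation rather than before treatment, and those with FBS set both rat sera beside the standard medium. Changes were tested with limma on log2(CPM + 1), a scale on which the change of low genes is understated, and adjusted over all 9820 rows. Each comparison was read by an adjusted p under 0.05 and by the thresholds of the study (a change of at least 2-fold at an unadjusted p under 0.05, in rows whose groups average 1 CPM or more). The same 6 libraries serve all 3 comparisons, and each library enters 2 of them, so the comparisons are not independent. Since both rats, as the labels name them, are present in each condition, the model was also fitted with rat as a blocking term. The p-values cover the spread between the cells of these 2 rats, not that between serum donors.

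Against FBS, nearly the whole set was lower in MS-. The median log2 difference of the 47 genes was -2.07 (-2.18 in rat 1, -2.06 in rat 2), against 0.01 over all rows. All 47 had a fitted difference below 0, against 48.1% of all rows. All 47 were also lower in both rats, a share that was not computed over all rows. The adjusted threshold called 41, against 2.72% of all rows for falls. The study thresholds called 43 (2.37% of all rows) and the fit with the rat as a block 46 (9.63%). Smc4 was the gene that passed none of the 3. In 46 of the 47 genes every MS- library lay below every FBS library, against 24.5% of all rows. Without FBS replicate 1 the adjusted count fell to 25. Of the members whose levels are given below, Cks2, Incenp, Aurkb, Mad2l1, Espl1, Ndc80 and Tpx2 lost their call under at least 1 alternative.

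MS+ was also below FBS, by a smaller difference. The median was -1.23 (-1.36 in rat 1, -1.08 in rat 2), against 0.00 over all rows, and 45 genes were lower in both rats. The fitted difference was below 0 in 46 genes, against 49.9% of all rows. The adjusted threshold called 37 genes, all lower, against 4.66% of all rows. The study thresholds called 38 (2.92%), and the block fit 43 (13.9%). Cdc25b, Cdc25c, Ckap2 and Smc4 passed none of the 3. The groups did not overlap in 45 genes, against 28.3% of all rows lower in that way. The adjusted count without the block rested on each library: leaving out either FBS replicate gave 3, leaving out MS+ replicate 1 gave 0, and leaving out MS+ replicate 2 gave 10. It was 24 with no filter on low values. None of the single-gene calls of MS+ against FBS given below therefore held with every library left out.

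Between the sera of stimulated and untreated animals, the set was higher in MS+. The median log2 difference was 0.83 (0.90 in rat 1, 0.91 in rat 2), against -0.01 over all rows, and 42 genes were higher in both rats. The fitted difference was above 0 in 45 genes, against 49.0% of all rows. In 39 genes both MS+ libraries lay above both MS- libraries, against 22.6% of all rows, and in 0 genes below them, against 23.1%. The study thresholds called 15 genes, all higher, against 0.845% of all rows for rises and 1.24% for either direction. These were Cdk1, Ccna2, Cdca3, Cdc20, Ube2c, Pttg1, Cenpf, Nuf2, Kif11, Kif23, Tacc3, Nusap1, Hmmr, Ckap2 and Top2a. The count was 23 without MS- replicate 2, 24 with a pseudocount of 0.1 in place of 1, and 23 with edgeR.

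After adjustment in limma, 0 of the 47 passed between MS+ and MS-, against 0.0204% of all rows. The lowest adjusted p of limma was 0.0757, for Cdc20, while 33 genes were at an unadjusted p under 0.05 and higher in MS+, against 7.53% of all rows. Without the block edgeR also called 0 (0.0305% of all rows) and limma-voom 0 (0.0204%), while DESeq2 called 15 (1.25%). With the rat as a block limma called 30, all higher, against 5.27% of all rows for rises. The block did not lower the SE of every gene: it went from 0.232 to 0.118 in Cdc25b but from 0.168 to 0.176 in Cdc20. Of those 30, 29 were also lower in MS- than in FBS at the adjusted threshold without the block, as were 41 of all 47. Both calls use the MS- libraries, and the share of all rows with both was not computed. In what follows, a gene is called higher with the block where it passed this fit alone.

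**Figure D3:**
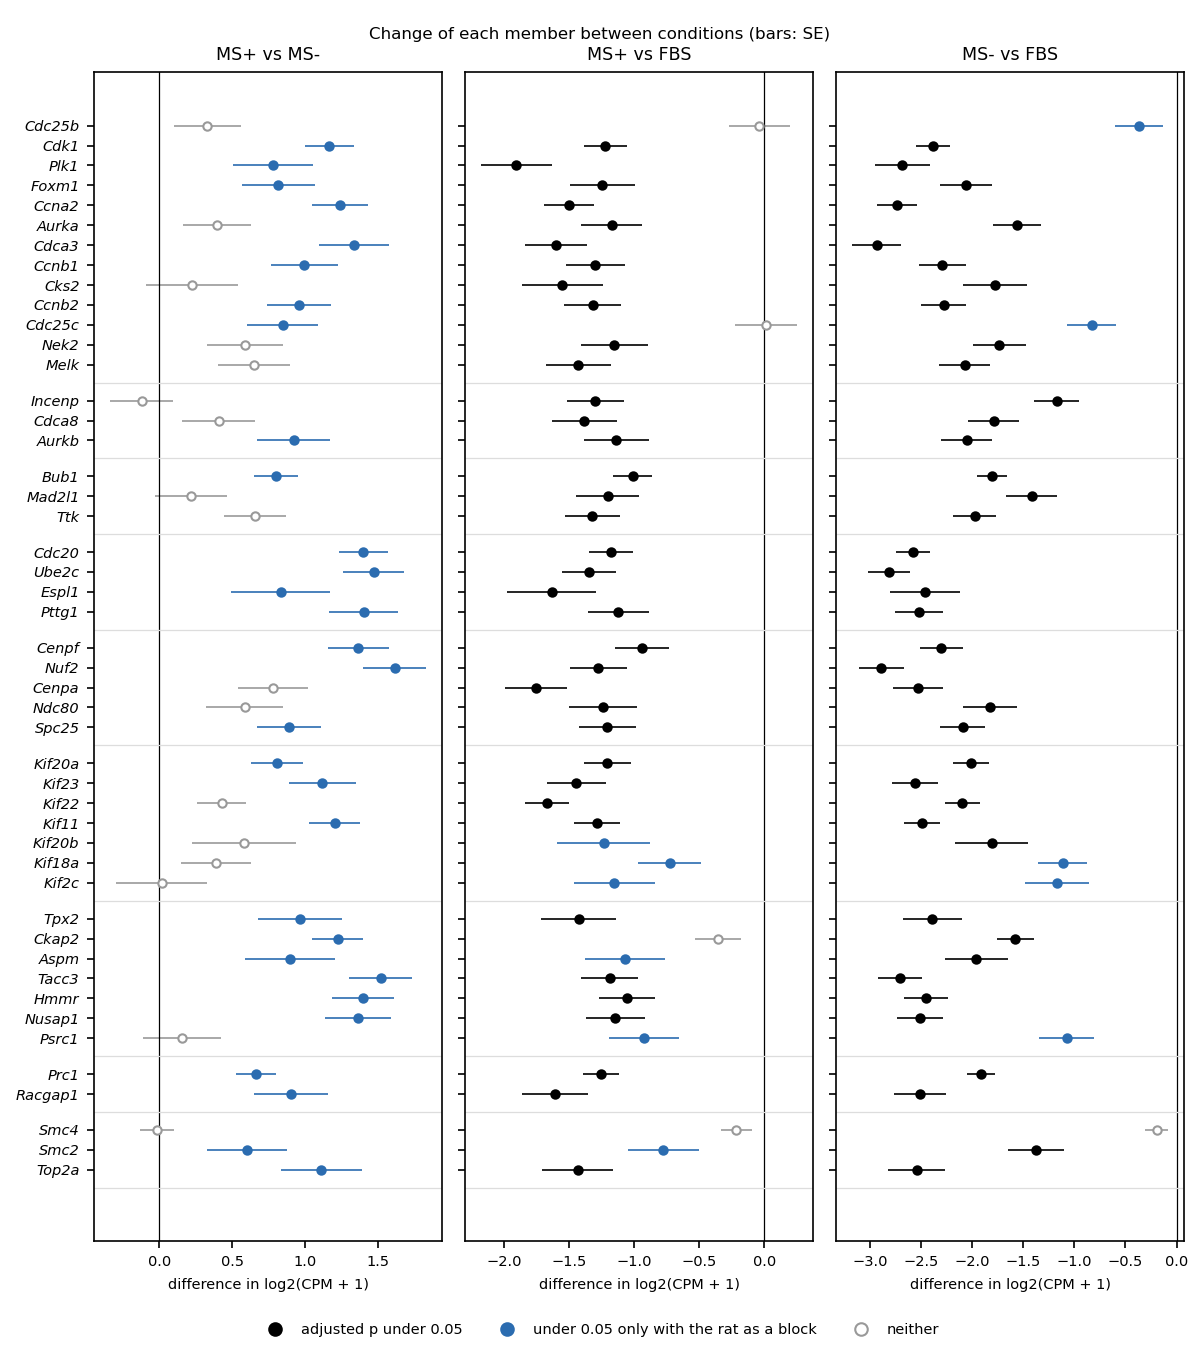
Difference in log2(CPM + 1) of each of the 47 genes in the 3 comparisons (point: fitted difference, bar: SE); black points passed an adjusted p of 0.05, blue points only with the rat as a block, open points neither. Points between MS+ and MS- lie mostly right of 0 with none in black, and those against FBS lie mostly left of 0 and in black.

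Measured entry genes numbered 13, the kinases, cyclins and regulators that push a cell into mitosis. MS- lay below FBS by a median of -2.07 and MS+ above MS- by a median of 0.81, and 8 of 13 were higher in MS+ with the block. Cdk1 (NM_019296, chromosome 20, 20018044 to 20044030 in rn4, plus strand) measured 49.1 and 41.1 CPM in FBS (rat 1 and rat 2), 8.60 and 7.05 in MS-, and 17.8 and 19.6 in MS+. The 3 conditions did not overlap. Its log2 difference was -2.39 (SE 0.17, limma adjusted p 0.00185) for MS- against FBS and 1.17 (SE 0.17, limma adjusted p 0.0917) for MS+ against MS-.

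The largest difference of this role between the rat sera was that of Cdca3, which helps to degrade the mitosis inhibitor Wee1 (NM_001007648, chromosome 4, 160952986 to 160956574, plus strand). It measured 23.2 and 21.9 CPM in FBS, 1.83 and 2.35 in MS-, and 5.41 and 8.44 in MS+, a difference of 1.34 (SE 0.24) between MS+ and MS- that met the study thresholds. Cdc25b (NM_133572, chromosome 3, 118893716 to 118903516, plus strand) did not follow the others. It measured 35.5 and 47.4 CPM in FBS, 27.3 and 36.7 in MS-, and 33.5 and 47.7 in MS+. Rat 2 was above rat 1 in every condition, and the conditions overlapped. The difference between MS- and FBS was -0.37 (SE 0.23), which passed with the block but not without it (limma adjusted p 0.426). Cks2 (NM_001126083, chromosome 17, 19423502 to 19429451, minus strand), a small subunit that binds Cdk1, measured 16.7 and 12.9 CPM in FBS, 2.38 and 5.24 in MS-, and 4.32 and 4.40 in MS+. It was lower than FBS in both sera at the adjusted threshold, while MS+ stood 0.22 (SE 0.31) above MS- on average, higher in rat 1 and lower in rat 2. Cdc25c, the sister phosphatase of Cdc25b, was chosen after its values were seen: it measured 8.68 and 7.96 CPM in FBS, 4.94 and 3.62 in MS-, and 10.1 and 6.97 in MS+. Its MS+ libraries thus lay on either side of its FBS libraries.

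The chromosomal passenger complex, which corrects faulty attachments through the kinase Aurkb, had 3 measured genes with a median of 0.41 for MS+ against MS-, at -0.02 in rat 1 and 0.83 in rat 2. Aurkb (NM_053749, chromosome 10, 55798710 to 55804367, plus strand) measured 16.7 and 12.4 CPM in FBS, 3.11 and 2.35 in MS-, and 5.04 and 7.16 in MS+. It was higher in MS+ than in MS- with the block only, by 0.92 (SE 0.25). Its scaffold Incenp (NM_001106335, chromosome 1, 212326516 to 212352859, minus strand) measured 22.8 and 26.5 CPM in FBS, 11.3 and 9.40 in MS-, and 7.75 and 11.4 in MS+. It was lower than FBS in both sera at the adjusted threshold, while the sera did not separate, at a difference of -0.12 (SE 0.22). All 3 genes of the complex passed the adjusted threshold against FBS in both sera.

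The spindle checkpoint had 3 measured genes, all lower than FBS in both sera at the adjusted threshold, and 1 of 3 was higher in MS+ than in MS- with the block. That gene was Bub1 (NM_001106507, chromosome 3, 115323510 to 115354906, minus strand), the checkpoint kinase. It measured 30.3 and 28.2 CPM in FBS, 8.05 and 7.23 in MS-, and 13.7 and 14.3 in MS+, so that the replicates of each condition lay close together. Mad2l1 (NM_001106594, chromosome 4, 96380039 to 96386042, plus strand), which binds and restrains Cdc20, measured 9.82 and 14.9 CPM in FBS, 3.84 and 3.98 in MS-, and 5.22 and 4.22 in MS+. MS+ stood 0.22 (SE 0.25) above MS-, within the spread of its MS+ libraries.

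The genes of the APC/C pathway and separase, which end mitosis, had, of the 9 roles, the lowest share of their FBS sum in MS-. Their summed level was 90.0 and 89.9 CPM in FBS, 10.1 and 13.0 in MS-, and 28.8 and 39.8 in MS+. That put MS- at 11.2% and 14.5% of FBS, and MS+ at 2.87 and 3.06 times MS-. All 4 passed the adjusted threshold against FBS in both sera and were higher in MS+ than in MS- with the block, with a median of 1.40. Whether this role differed from the others was not tested.

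Cdc20 (NM_171993, chromosome 5, 138913180 to 138916744, minus strand), whose promoter is printed above, measured 33.4 and 31.8 CPM in FBS, 4.57 and 4.70 in MS-, and 12.4 and 15.4 in MS+. The difference between MS+ and MS- was 1.40 (SE 0.17), and its limma adjusted p of 0.0757 became 0.000166 with the block (0.000166 to 0.456 across the alternatives). Its SE was 0.168 without the block and 0.176 with it, so the lower p did not come from a smaller SE of this gene. Ube2c (NM_001106542, chromosome 3, 155800357 to 155802757, plus strand), the enzyme that hands ubiquitin to the APC/C, measured 27.3 and 24.0 CPM in FBS, 2.38 and 3.25 in MS-, and 8.47 and 10.6 in MS+. It had the largest difference of the role between the rat sera, 1.47 (SE 0.21), and met the study thresholds. Espl1 (NM_001170602, chromosome 7, 141047821 to 141074675, plus strand), which is separase itself, measured 18.7 and 22.7 CPM in FBS, 2.20 and 3.80 in MS-, and 4.14 and 8.44 in MS+. Its MS+ libraries stood further apart than those of Cdc20, and its difference of 0.83 (SE 0.34) passed with the block only.

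Of 5 kinetochore genes, all passed the adjusted threshold against FBS in both sera, and 3 were higher in MS+ than in MS- with the block. Nuf2 (NM_001012028, chromosome 13, 85286634 to 85315366, minus strand), part of the Ndc80 complex that grips microtubules, had the largest log2(CPM + 1) difference of the 47 genes between the rat sera. It measured 17.7 and 16.6 CPM in FBS, 1.28 and 1.63 in MS-, and 5.59 and 7.52 in MS+. Its MS- level thus rests on few reads. The difference was 1.61 (SE 0.22), at 1.53 in rat 1 and 1.70 in rat 2, with a limma adjusted p of 0.0917. Cenpf (NM_001100827, chromosome 13, 105920242 to 105965655, minus strand), a large protein of the outer kinetochore, measured 48.1 and 58.2 CPM in FBS, 8.23 and 11.9 in MS-, and 24.3 and 30.3 in MS+. It met the study thresholds between MS+ and MS- (1.37, SE 0.21). Ndc80 (NM_001126270, chromosome 9, 110702935 to 110718894, minus strand), the partner of Nuf2, measured 10.1 and 9.28 CPM in FBS, 2.74 and 1.45 in MS-, and 3.24 and 3.85 in MS+. Its difference of 0.58 (SE 0.26) between MS+ and MS- did not pass, and was 0.18 in rat 1 and 0.99 in rat 2.

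The 7 kinesins, motors that slide and shorten spindle microtubules, were lower in MS- than in FBS by a median of -2.01, and 3 were higher in MS+ than in MS- with the block. Kif11 (NM_001169112, chromosome 1, 241668938 to 241722847, plus strand), which pushes the spindle poles apart, measured 24.1 and 29.2 CPM in FBS, 3.66 and 4.16 in MS-, and 10.1 and 10.5 in MS+. It met the study thresholds between MS+ and MS- with a difference of 1.20 (SE 0.18). Kif20a (NM_001108426, chromosome 18, 27100044 to 27108530, plus strand), a motor of the central spindle, measured 86.1 and 81.7 CPM in FBS, 20.9 and 19.3 in MS-, and 29.7 and 43.1 in MS+. Its row overlaps that of Cdc23 and is uncertain, since reads of overlapping genes may not be assigned. Kif2c (NM_001085369, chromosome 5, 137473698 to 137498974, minus strand), which takes microtubules apart, has 2 rows in the table, and the more abundant held 12 and 8 reads in FBS, 2 and 0 in MS-, and 1 and 1 in MS+. Both rat sera were under the 3 reads taken as the floor of a single library (0.491 to 0.551 CPM), so no difference between them was detectable at this depth.

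Spindle assembly genes had a median of 1.22 between MS+ and MS-, and 6 of 7 were higher in MS+ with the block. Tacc3 (NM_001004424, chromosome 14, 82746461 to 82760864, minus strand), which steadies the fibres that hold kinetochores, measured 28.0 and 31.8 CPM in FBS, 2.93 and 4.70 in MS-, and 12.3 and 12.8 in MS+. With MS+ at 1.52 (SE 0.22) above MS-, it met the study thresholds. Tpx2 (NM_001107790, chromosome 3, 143194067 to 143236185, plus strand), which activates Aurka on the spindle, measured 52.7 and 58.2 CPM in FBS, 6.77 and 13.9 in MS-, and 20.7 and 19.3 in MS+. Its MS- libraries differed most, so that the difference was 1.48 in rat 1 and 0.44 in rat 2, and it passed with the block only. Psrc1 (NM_001044302, chromosome 2, 203952299 to 203956742, plus strand), a microtubule protein, measured 2.95 and 2.32 CPM in FBS, 0.549 and 0.904 in MS-, and 0.901 and 0.918 in MS+. The rat sera overlapped in this gene.

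In this role Ckap2, a microtubule-stabilising protein chosen after its values were seen, was nearest to its FBS level in MS+. It measured 35.7 and 45.6 CPM in FBS, 11.9 and 13.9 in MS-, and 28.5 and 34.5 in MS+. The difference was 1.22 (SE 0.18) between MS+ and MS-, meeting the study thresholds, and -0.35 (SE 0.18, limma adjusted p 0.247) between MS+ and FBS.

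Both cytokinesis genes were higher in MS+ than in MS- with the block. Prc1 (NM_001107529, chromosome 1, 136112674 to 136133720, plus strand), which bundles microtubules of the central spindle, measured 111 and 110.1 CPM in FBS, 27.1 and 30.4 in MS-, and 40.9 and 51.6 in MS+. Racgap1 (NM_001108112, chromosome 7, 138366356 to 138395716, minus strand), a subunit of the centralspindlin complex of dividing cells, measured 32.2 and 33.7 CPM in FBS, 3.84 and 6.33 in MS-, and 8.47 and 12.1 in MS+. The conditions did not overlap in either gene, and both were lower than FBS in both sera at the adjusted threshold.

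Chromosome condensation genes differed among themselves. Top2a (NM_022183, chromosome 10, 87771337 to 87800962, minus strand), the topoisomerase that untangles sister DNA, measured 53.0 and 61.3 CPM in FBS, 6.77 and 11.7 in MS-, and 16.9 and 24.8 in MS+. It met the study thresholds between MS+ and MS- (1.11, SE 0.28). Smc4 (NM_001037185, chromosome 2, 158987318 to 159015705, plus strand), a core subunit of both condensins, measured 94.0 and 90.9 CPM in FBS, 73.2 and 88.8 in MS-, and 80.4 and 78.9 in MS+. The MS+ libraries lay within the range of the MS- libraries, and its differences of -0.19 (SE 0.12) for MS- against FBS and -0.21 (SE 0.12) for MS+ against FBS passed no test.

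**Figure D4:**
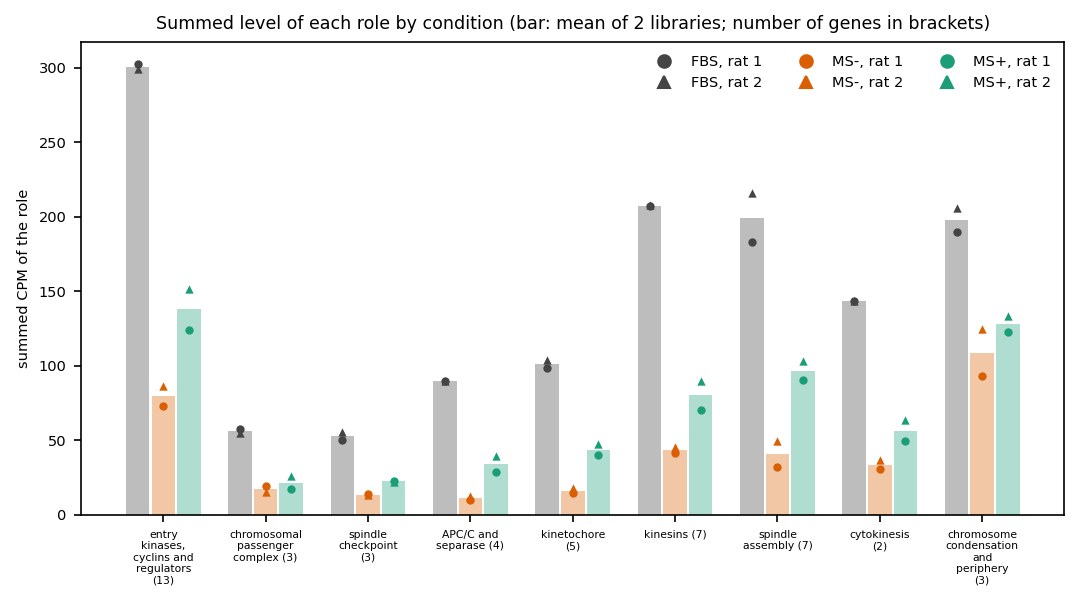
Summed CPM of the measured genes of each role (number in brackets) by condition; bars are the mean of 2 libraries and start at 0, circles are rat 1 and triangles rat 2. In most roles MS+ stands between MS- and FBS; in the chromosomal passenger complex the rat 1 value of MS+ (17.5) lies below that of MS- (19.2).

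Other genes of cell division were taken from 9 further lists, whose calls were not recomputed with single libraries left out. The 13 core subunits of the APC/C had a median of 0.05 for MS+ against MS- and of -0.06 for MS- against FBS. Anapc5, a platform subunit, measured 380 and 311 CPM in FBS, 297 and 264 in MS-, and 262 and 234 in MS+. Of the 13, 1 was higher in MS+ than in MS- with the block, against 5.27% of all rows. That gene, Anapc11, the RING subunit, measured 65.3 and 60.2 CPM in FBS, 58.9 and 55.0 in MS-, and 69.4 and 79.7 in MS+. The 8 cohesin genes tested had medians of -0.11 and 0.17. Rad21, the cohesin subunit that separase cuts, measured 146 and 146 CPM in FBS, 124 and 127 in MS-, and 125 and 122 in MS+. Cdca5 (sororin), which protects cohesin from early release, measured 2.13 and 3.65 CPM in FBS, 0.732 and 1.08 in MS-, and 1.62 and 1.84 in MS+. It was lower in MS- than in FBS with the block.

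Inhibitors of entry and phosphatases of exit (11 tested) had medians of -0.10 for MS+ against MS- and -0.08 for MS- against FBS, and differed widely among themselves. Between MS- and FBS 2 were lower at the adjusted threshold, Pkmyt1 and Mastl, and 3 with the block, these and Fbxo5. Mastl, the kinase that holds the exit phosphatase in check, measured 13.4 and 15.3 CPM in FBS, 2.56 and 5.78 in MS-, and 4.68 and 6.97 in MS+. It was -1.64 (SE 0.34) for MS- against FBS and 0.45 (SE 0.34) for MS+ against MS-, the latter passing no test. Pkmyt1, which inhibits Cdk1 and was chosen after its values were seen, had the lowest difference from FBS in MS-, -1.73. Ppp2r2a, a regulatory subunit of that phosphatase family, was at 112 to 145 CPM in all 6 libraries.

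The DREAM and MuvB complex, which represses mitotic genes in resting cells and activates them later, had a median of 0.06 between MS+ and MS- over 7 genes. Rbl2, a pocket protein of its repressor form, measured 27.5 and 35.8 CPM in FBS, 41.7 and 40.8 in MS-, and 38.4 and 45.3 in MS+. Its activating partner Mybl2 measured 22.6 and 19.6 CPM in FBS, 3.48 and 2.89 in MS-, and 6.13 and 6.24 in MS+, and was higher in MS+ than in MS- with the block. Of further spindle and cytokinesis genes outside the 58, 16 were tested, with a median of 0.67 for MS+ against MS- and of -1.95 for MS- against FBS, and 8 were higher in MS+ with the block. Gtse1, the most abundant of these, had another order, at 45.5 and 52.2 CPM in FBS, 64.9 and 68.9 in MS-, and 86.1 and 70.7 in MS+. Fam83d, a spindle protein, measured 20.8 and 20.2 CPM in FBS, 1.83 and 3.98 in MS-, and 7.93 and 8.63 in MS+. Further kinetochore and checkpoint genes (17 tested) had medians of 0.38 and -1.07, with 3 higher in MS+ with the block. Of all rows, 5.27% were higher in MS+ than in MS- with the block. Cenpm, of the inner kinetochore, measured 8.84 and 10.8 CPM in FBS, 1.46 and 1.99 in MS-, and 3.60 and 5.51 in MS+. Bub3, a checkpoint protein that also serves in interphase, was at 38.0 to 40.3 CPM in all 6 libraries.

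Genes of the earlier cell cycle phases were mixed. For MS- against FBS, 11 of the 23 replication licensing genes fell at the adjusted threshold, with a median of -1.07. Their median for MS+ against MS- was 0.15, and 3 were higher in MS+ with the block, against 5.27% of all rows. Mcm5, a subunit of the replicative helicase, measured 23.2 and 18.4 CPM in FBS, 0.915 and 1.45 in MS-, and 3.78 and 4.04 in MS+. Orc4, of the origin recognition complex, was instead at 26.7 and 31.3 CPM in FBS, 37.9 and 44.8 in MS-, and 40.5 and 41.8 in MS+. Of 27 DNA synthesis genes, 9 were lower in MS- than in FBS at the adjusted threshold (median -0.86), against 2.72% of all rows. Between MS+ and MS- (median 0.10) 1 was higher with the block, against 5.27% of all rows. Rrm2, the ribonucleotide reductase subunit made in S phase, was the DNA synthesis gene with the largest difference. It measured 54.8 and 57.7 CPM in FBS, 7.87 and 8.32 in MS-, and 16.2 and 21.7 in MS+. Rfc1, the large subunit of the clamp loader, was at 45.7 to 55.9 CPM in all 6 libraries.

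The 13 G1 cyclins, CDK inhibitors and partners had medians of -0.41 for MS- against FBS and 0.07 for MS+ against MS-. Between MS- and FBS 4 were lower at the adjusted threshold and 1 was higher, against 2.09% of all rows for rises. The higher gene was Cdkn1a (p21), an inhibitor of cyclin-dependent kinases chosen after its values were seen. It measured 239 and 247 CPM in FBS, 657 and 718 in MS-, and 786 and 786 in MS+. Between MS+ and MS- 1 was higher with the block and 3 were lower, against 5.27% of all rows for rises and 4.78% for falls. The higher gene was E2f1, an activator of S phase genes, at 19.2 and 21.2 CPM in FBS, 4.76 and 4.70 in MS-, and 7.03 and 8.81 in MS+. The lower genes were Ccnd1, Ccnd2 and Cdkn2b. Ccnd1, the D-type cyclin of highest level, measured 790 and 922 CPM in FBS, 534 and 746 in MS-, and 430 and 599 in MS+. The summed level of the G1 list, most of it Ccnd1 and Cdkn1a, was at 103% and 112% of FBS in MS- and at 105% in both rats in MS+. The difference between these lists and the 47 mitotic genes was not tested.

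**Figure D5:**
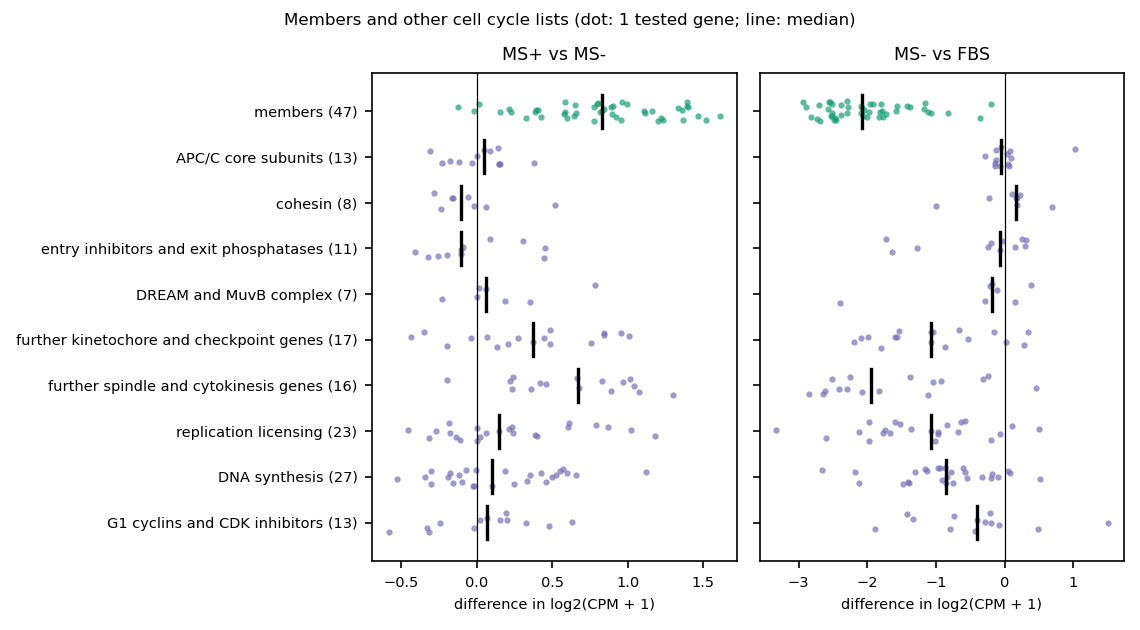
Difference in log2(CPM + 1) of each tested gene (dot) and the median (line) in the mitotic genes and 9 further lists, for MS+ against MS- (left) and MS- against FBS (right); numbers of genes are in brackets. Between MS+ and MS- the mitotic genes have a median of 0.83 and the further lists medians from -0.11 to 0.67.

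Among the mitotic genes with a promoter and a row, the 28 with TTTGAA had a median difference between MS+ and MS- of 0.87 (from -0.02 to 1.61), and the 12 without it 0.62 (from 0.02 to 1.34). The ranges of the 2 sets overlapped.

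Other quantities moved with the sera as well. The summed level of 8 fibroblast markers, led by the collagens Col1a1 and Col1a2, was 80990 to 87904 CPM in FBS, 62697 to 65269 in MS- and 71050 to 73802 in MS+, the same order as the mitotic genes, and its part in the result was not tested. That order was not shared by all 8: Vim measured 11485 and 11981 CPM in FBS, 12544 and 14340 in MS-, and 13972 and 16559 in MS+, and Pdgfrb was highest in MS-, at 2500 and 2518 against 2335 and 2362 in FBS and 2348 and 2137 in MS+. The lubricin gene Prg4, a marker of the synovial lining, was at only 1.27 to 3.32 CPM. Of 7 macrophage markers with a row, Ptprc, Emr1, Cd163 and Lyz2 were at 0 reads in every library, and the summed level of 13.8 to 20.5 CPM was almost all Cd14. Lymphocyte and blood cell markers had 0 reads, and endothelial and epithelial markers summed to at most 1.47 and 1.28 CPM.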

How the data were processed

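The authors aligned reads of poly(A)-selected RNA to the rat genome rn4 with Bowtie2 2.1.0 and counted them per transcript with HTSeq 0.5.4p3 (versions from the submitters' processing notes). The deposited table holds 17221 transcript rows of normalized signal in CPM, made by dividing counts by TMM-scaled library sizes. Reads in the overlap of transcripts are not counted by HTSeq, and whether strand was used is not given in the sources used here, so 1438 rows that overlap another symbol are uncertain. Whole reads were recovered for 100% of values (tolerance 1e-06 reads). The libraries held 5463316 to 5991889 reads, and 3 reads corresponded to 0.491 to 0.551 CPM, a floor that covers counting error only.

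The 58 genes and the further lists were chosen with earlier results of these data known. Where a symbol had several rows, the one of highest CPM stood for it. Rows with both libraries of at least 1 condition at 1 CPM were kept (9820) and tested with limma 3.58.1 in R 4.3.3 (lmFit, eBayes with trend, two-sided) on log2(CPM + 1), with condition as the only term, all 6 libraries and Benjamini-Hochberg adjustment. The planned limma-voom was kept as an alternative, since the table holds normalized values. The authors used limma-voom, and a blocking term is not given in the sources used here. Named genes were, in each role, the one of highest mean CPM and those of highest and lowest difference between MS+ and MS-; in each further list, they were the one of highest CPM and the one of largest change. The alternatives were the rat as a block, DESeq2 size factors or library totals, a pseudocount of 0.1, no filter or a filter of 5 CPM, each library left out, edgeR 4.0.16, limma-voom and DESeq2 1.42.0 on recovered reads. Scripts were tested on simulated data. Libraries are paired by rat, as the labels give both rats in each condition. Across rows, the rat 2 minus rat 1 differences of MS+ had a Pearson r of 0.59 with those of MS- and 0.49 with those of FBS, and those of MS- and FBS had 0.62. Replicate libraries were not copies (chi-square per degree of freedom 13.6 to 15.1). Coordinates of genes are those of rn4, 1-based. RefSeq promoters of GRCr8 were matched by symbol, taking the first entry where a symbol had several; 8 of the 58 genes had no match (Ccna2, Foxm1, Aurkb, Incenp, Ube2c, Kif4, Tpx2 and Racgap1).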

Additional observations from a re-analysis of the deposited data

How the results depend on the processing

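Between MS+ and MS-, the count of genes past the adjusted threshold (0 of 47) was 30 with the replicate block, 29 by edgeR with the block and 15 by DESeq2, and stayed at 0 with each library left out. The count by the study thresholds (15) was 24 with a pseudocount of 0.1, 23 by edgeR with or without the block, and 15 to 23 with 1 library left out. The median (0.83) was 1.00 with a pseudocount of 0.1, 0.99 by edgeR with or without the block, 1.01 by limma-voom and DESeq2, and 0.70 to 0.95 with 1 library left out. Between MS+ and FBS, the adjusted count (37) was 24 with no filter and 0 to 33 with 1 library left out, and the median (-1.23) was -1.36 with a pseudocount of 0.1 and by limma-voom, -1.37 by edgeR with or without the block, -1.38 by DESeq2, and -1.34 to -1.09 with 1 library left out. Between MS- and FBS, the adjusted count (41) was 25 to 37 with 1 library left out, and the median (-2.07) was -2.40 with a pseudocount of 0.1 and by limma-voom, -2.41 by edgeR with or without the block, -2.43 by DESeq2, and -2.19 to -2.06 with 1 library left out. The smaller pseudocount and the tests on reads shrink low values less. The cause of the other shifts was not tested. The share of all rows called was not computed for edgeR with the block or for the study thresholds under these alternatives. Nor was the share of all rows that moved the same way in both rats.

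Some genes with small differences changed sign. With 1 library left out, the difference between MS+ and MS- ran from -0.22 (without MS- replicate 1) to 0.67 in Cks2, from -0.37 to 0.13 (without MS+ replicate 1; 0.00084 without MS- replicate 1) in Incenp, from -0.21 (without MS- replicate 2) to 0.24 in Kif2c and from -0.15 to 0.12 (without MS- replicate 2) in Smc4. Kif2c was at -0.00055 by edgeR and -0.0019 by edgeR with the block. For MS+ against FBS, Cdc25b ran from -0.29 to 0.21 (without MS+ replicate 1; 0.17 without FBS replicate 2). Of 389 values of the 23 named genes under the alternatives between MS+ and MS-, 343 kept their direction and side of the threshold, 39 passed it newly and 7 changed sign. For MS+ against FBS, 299 kept both and 83 lost their call, and for MS- against FBS 355 and 28. Other scaling moved the median of all rows by at most 0.05 and changed no count of calls by over 1.5 times. Depth limits Kif2c and Psrc1 most. The MS- levels behind some of the larger rises also rest on few reads, 5 and 7 in Pttg1 and 10 and 13 in Cdca3.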
